A study of Mus musculus with 39 samples.

Results

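The comparison covered the livers of 30 mice that ate a Western diet, 15 CD163 knockouts and 15 wildtype littermates, out of 39 livers in the whole series, and was made across all genes grouped by what they do. The 30 livers were chosen by their labels alone. All mice were males from crosses between heterozygotes on C57BL/6NTac that carry the allele CD163tm1(KOMP)Vlcg, so that knockout and wildtype mice were littermates. From 6 weeks of age, both groups were given Western diet with fructose in the water for 8 weeks, and RNA from snap-frozen liver was then sequenced. The labels name no cell type to which the loss is limited. The other 9 livers, 5 wildtype and 4 knockout on chow, entered the model for the estimate of spread and are used beside the results only where stated.

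CD163 is a scavenger receptor of macrophages. In the liver it sits on Kupffer cells, the resident macrophages of the sinusoids, and takes up haemoglobin that haptoglobin has bound in plasma. The haem is opened by haem oxygenase 1 inside the macrophage, and its iron is stored in ferritin or exported by ferroportin to transferrin. CD163 also binds TWEAK, the TNF family ligand encoded by Tnfsf12, and is in wide use as a marker of macrophages with an anti-inflammatory phenotype. A Western diet with fructose loads hepatocytes with fat, and the question the comparison addresses is what the absence of CD163 alters in such a liver. These are whole-liver RNA counts, so fewer cells of a type and less RNA per cell cannot be told apart.

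The knockout libraries held 8578865 to 30438808 counts and the wildtype libraries 11021915 to 18909180. The label "liver" held, with the hepatocyte gene Alb at 17659.6 CPM (counts scaled to a common library size) or more in each of the 30. Among the fat and pancreas markers, 2 of 12, Cela1 and Cfd, were high enough to be tested. Knockout M and wildtype A stood near the chow livers on 532 genes that differ 2-fold or more between the diets. With each end of the scale set from the livers that stand with their label, so that those on chow average 0 and those on Western diet 1, they lay at 0.158 and 0.212, against 0.819 to 1.25 in the other 28 Western diet livers and -0.0595 to 0.102 in 7 of the chow livers. The remaining 2, wildtype chow A and knockout chow D, lay at 0.912 and 0.992. All kept their labels, the results that matter are also given for 14 against 14 livers, and Cd163 was the only gene called by the main test either way. Knockout F was the deepest library and held the highest level of the 30 livers in 1357 of the 15296 tested genes, exceeded by knockout E with 1490. Wildtype L and M resembled each other more than any other pair of Western diet libraries did, with 3.77 for their chi-square per gene where the next pair had 9.63 and counting noise alone gives about 1. They were kept as 2 mice.

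**Figure D1:**
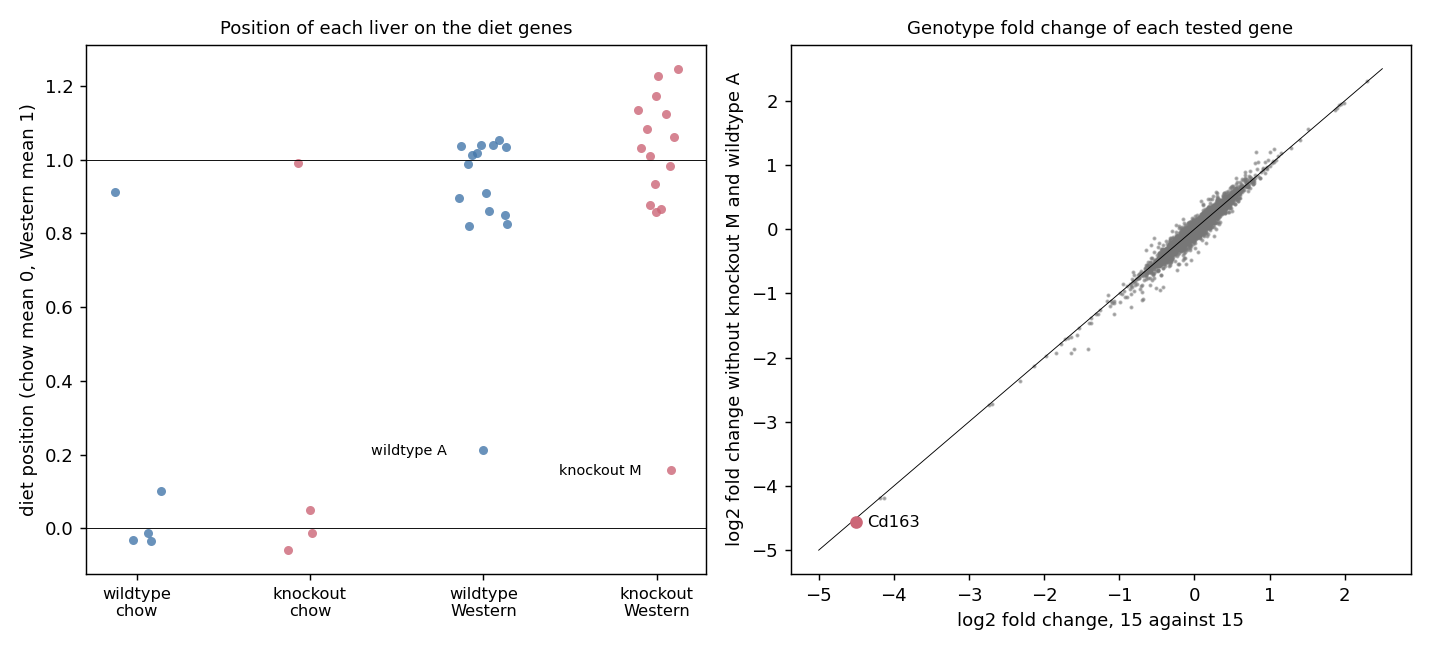
The left panel plots the diet position of each of the 39 livers by group (0 is the chow mean and 1 the Western diet mean, each from livers that stand with their label). Knockout M and wildtype A, at 0.158 and 0.212, lie with the chow livers. The right panel plots, for each tested gene, the genotype fold change over 14 against 14 livers on that over 15 against 15, with the line of equality. The genes follow the line, with Cd163 at the lower left end.

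Cd163 itself was nearly lost from the knockout livers. Its raw count was between 41 and 252 in the wildtype libraries and between 0 and 12 in the knockout libraries. In CPM the wildtype livers ranged from 2.59 to 15.8 CPM (median 7.70) and the knockout livers from 0 to 0.661 CPM (median 0.377). The groups did not overlap, and each of the 15 knockout libraries was below the lowest wildtype library. The mean was 8.31 ± 4.27 CPM (wildtype) and 0.355 ± 0.209 CPM (knockout), 4.27% of the wildtype level. The log2 fold change was -4.50 (SE 0.30, 95% interval -5.10 to -3.89, adjusted p = 1.04e-13 by edgeR's quasi-likelihood test with Benjamini-Hochberg adjustment over all 15296 tested genes). A 2-sided permutation test of the mean CPM over 100000 resamples gave p = 1e-05, the smallest these resamples can give. Without knockout M and wildtype A the fold change was -4.56 (adjusted p = 1.20e-12) and the knockout level 4.08% of wildtype. A remainder of 84 reads over the 15 knockout libraries, with at least 1 read in 14 of them, stood against 1824 reads in wildtype. Whether these reads come from the altered allele was not tested.

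The 4 annotated genes that follow Cd163 in the genome, before the protein-coding gene Pex5, had reads on Western diet in knockout livers only. All 4 are noncoding or unclassified genes, and all are too low for the model's filter. They were looked at after their values were seen, as the nearest genes to the targeted locus. 1700013D24Rik, a long noncoding RNA gene on the strand opposite to Cd163, had 0 reads in 15 of 15 wildtype livers and 75 reads in knockout livers. These were spread over 14 of the 15 knockout libraries, at 2 to 12 reads in each of the 14. 1700027F06Rik, a long noncoding RNA gene on the same opposite strand, had 0 reads in wildtype and 25 in knockout livers, in 11 libraries. Gm44006, a long noncoding RNA gene on the strand of Cd163, had 0 and 18 reads, in 10 knockout libraries. Gm44007, whose gene type the annotation leaves unsettled, on the opposite strand, had 0 and 35 reads, in 12 knockout libraries.

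A floor of 3 reads over the 15 wildtype libraries was set in place of the 0 seen. Over this floor, the observed knockout level was 25.1-fold for 1700013D24Rik, 11.7-fold for Gm44007, 8.37-fold for 1700027F06Rik and 6.03-fold for Gm44006. These ratios leave out the counting error of the knockout reads and the spread between mice, so they are not lower bounds. The level in knockout livers was small, 0.327 CPM of the raw totals for 1700013D24Rik (exact Poisson 95% interval 0.257 to 0.409, counting error only). Fits that keep low genes called 2 of the 4. DESeq2 gave adjusted p = 5.36e-10 for 1700013D24Rik and 0.0120 for Gm44007 (1.10e-08 and 0.00624 without knockout M and wildtype A), and edgeR without a filter gave 2.13e-06 and 0.00637, with 0.00826% of its genes called. For 1700027F06Rik and Gm44006 the edgeR values were 0.120 and 0.324, which do not pass. The chow livers are other mice and showed the same order. Knockout chow livers had 19 reads of 1700013D24Rik (3 to 7 in each of 4) and 21 reads of Gm44007 (2 to 7 in each of 4), against 0 and 1 in the 5 wildtype chow livers. Fisher's exact test of libraries with and without a read, 2-sided, gave p = 0.00794 for 1700013D24Rik in chow, the smallest that 4 against 5 livers allow, and 0.0317 after adjustment over the 4 genes. For Gm44007 and Gm44006 the chow p was 0.0476 (0.0635 adjusted) and for 1700027F06Rik 0.167.

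No gene on either side of this stretch was called. Pex5, the import receptor of peroxisomes and the next gene on, was at 206 ± 25.5 CPM (wildtype) and 205 ± 28.0 CPM (knockout), and its log2 fold change had a 95% interval of -0.14 to 0.14. Clstn3 (log2 fold change 0.14, SE 0.29) and C1rl (-0.023, SE 0.066), further along, did not pass either. On the other side of Cd163, the nearest genes with reads are Gm43971, with 1 read in each genotype, Gm6423 with 1 and 0, and Vmn2r27, a vomeronasal receptor gene, with 2 in wildtype and 0 in knockout. The label names the kit without a strand option and the counting setting is not given in the sources used here, so reads of these 4 genes cannot be assigned to a strand. Order, gene type and strand come from a GRCm38 annotation, whereas the counts refer to GRCm39, and no coordinates are given for that reason.

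**Figure D2:**
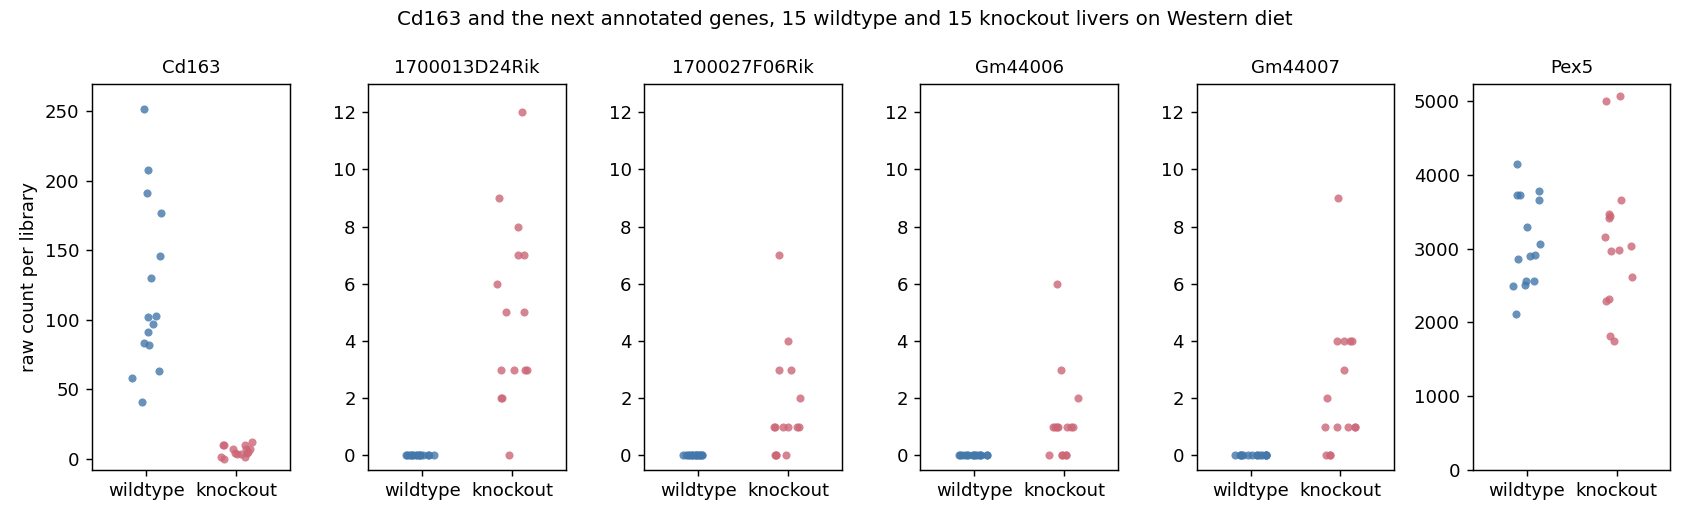
Raw read count per library (vertical axis, own scale for Cd163 and Pex5) of Cd163, the 4 genes after it and Pex5, in genome order, with 1 point per liver on Western diet and horizontal scatter for legibility. The 4 genes in the middle are at 0 in all wildtype livers and reach 12, 7, 6 and 9 reads in knockout livers, and Pex5 overlaps between the genotypes.

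No gene other than Cd163 passed the threshold of 0.05 on the adjusted p of the edgeR test, and a gene is described as called where it passed that test unless another tool is named. Of the 15296 tested genes, 0.00654% were called, with 0 higher in knockout livers. Without knockout M and wildtype A the call was again Cd163 alone, 0.00656% of the 15239 tested. Cd163 was likewise the only tested gene whose CPM did not overlap between the groups (0.00654%). At an unadjusted p under 0.05 there were 777 genes (5.08%), with the higher level in knockout livers in 2.76% of the tested genes and the lower in 2.32%. Positive fold changes made up 53.5% of the tested genes and the median log2 fold change was 0.00910. DESeq2, which tests 36317 genes, called 4 (0.0110%), namely Cd163, 1700013D24Rik, Gm44007 and Spic.

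The comparison was precise enough to bound most fold changes. The median SE of a log2 fold change was 0.111. For 95.3% of the tested genes the whole 95% interval lay within 2-fold of no change, and for 78.3% it lay within 1.5-fold. Among the 8253 genes at 10 CPM or more the shares were 98.9% and 95.5%. A fitted fold change beyond 2-fold in either direction was seen in 50 genes, and 25 of these were at 1 CPM or more. For low genes the intervals are wide, and a 2-fold difference was often not detectable there at this depth.

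**Figure D3:**
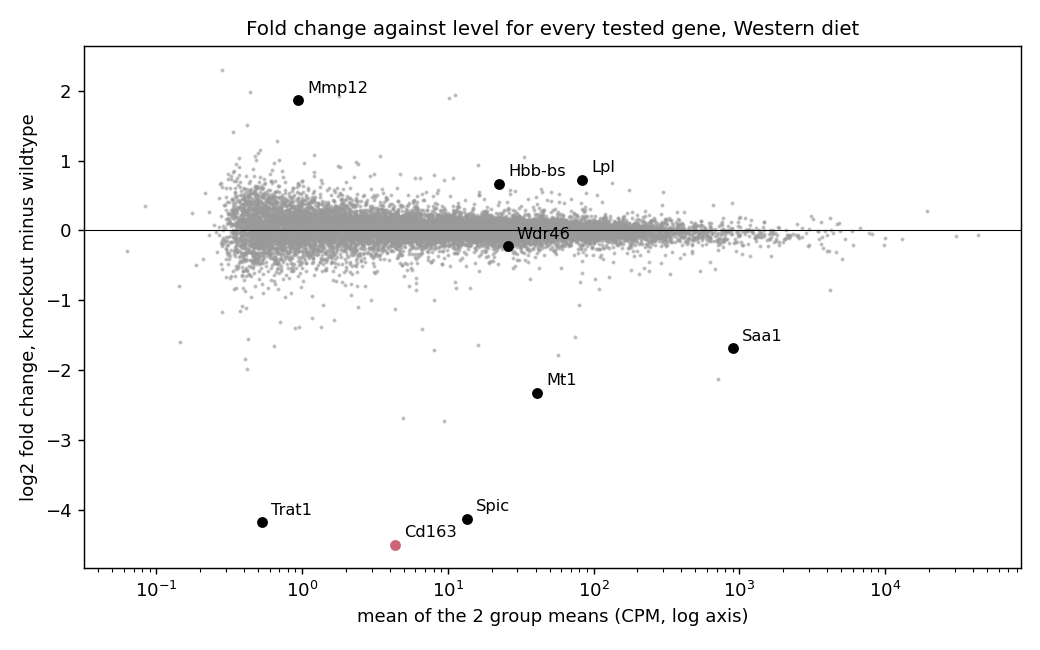
Log2 fold change (knockout minus wildtype, Western diet) of each of the 15296 tested genes on its mean level in CPM (log axis), with Cd163 in red and 8 genes of the text in black. Cd163 at -4.50 is the only point that passed the edgeR test, and Spic and Trat1 lie nearly as low without passing it.

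The genes nearest to the threshold were a mixed group, and none of them passed it. Lpl, lipoprotein lipase, which releases fatty acids from circulating triglyceride, was at 62.7 ± 17.7 CPM (wildtype) and 104 ± 53.1 CPM (knockout). Its range was from 42.0 to 99.3 CPM (median 61.3) in wildtype and from 40.4 to 257 CPM (median 91.5) in knockout, so the groups overlapped, and the highest knockout livers were J at 257, G at 163 and F at 152 CPM. The log2 fold change was 0.73 (SE 0.19, adjusted p = 0.943), 0.77 (adjusted p = 0.599) without knockout M and wildtype A, and 0.57 without knockout J. Knockout M, which stood with chow, had the lowest Lpl of the 30 livers, 40.4 CPM. Wdr46, a protein of ribosome assembly in the nucleolus, had the smallest p below Cd163 on the lower side with 27.9 ± 2.26 CPM (wildtype) and 23.8 ± 1.86 CPM (knockout) (log2 fold change -0.23, SE 0.051, adjusted p = 0.427). Its range was from 24.4 to 33.7 CPM (median 28.2) in wildtype and from 20.3 to 27.1 CPM (median 24.4) in knockout, and none of the 15 knockout livers was above the wildtype median.

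The genes with the smallest p on the higher side had varied roles. Zfx, an X-linked zinc finger transcription factor, was at 14.8 ± 1.82 CPM (wildtype) and 17.2 ± 1.99 CPM (knockout), with all 15 knockout livers above the wildtype median (log2 fold change 0.22, SE 0.065). Arid3a, a DNA-binding regulator known from B cells and from early development, was at 2.66 ± 0.713 CPM (wildtype) and 3.62 ± 0.877 CPM (knockout), again with 15 of 15 above that median (0.43, SE 0.13). Zbtb44, a zinc finger protein, was above it in 14 of 15 (0.24, SE 0.066), and Rnf168, a ubiquitin ligase of the DNA damage response, in 13 of 15 (0.23, SE 0.066). Fgfr2, a receptor of fibroblast growth factors, had 0.25 (SE 0.069) and Plk2, a stress-induced kinase and p53 target, 0.51 (SE 0.15). Casp1, the protease that matures interleukin 1 beta in the inflammasome, was at 1.70 ± 0.476 CPM (wildtype) and 2.60 ± 0.955 CPM (knockout) (0.61, SE 0.17, above the wildtype median in 13 of 15). Also on this side are Ugcg, which makes glucosylceramide (0.27, SE 0.079), and Gk, glycerol kinase, which passes glycerol from lipolysis to triglyceride or glucose synthesis (76.5 ± 16.7 CPM (wildtype) and 96.9 ± 20.2 CPM (knockout), 0.34, SE 0.10). Uhrf1bp1l and Lrp2bp complete the higher side, with 0.27 and 0.96. All of these, like Lpl, have an adjusted p of 0.943 with the 30 livers.

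The lower side was as varied. Pglyrp2, a plasma amidase that cleaves bacterial peptidoglycan, was at 125 ± 18.9 CPM (wildtype) and 95.9 ± 18.3 CPM (knockout), with 0 of 15 knockout livers above the wildtype median (log2 fold change -0.38, SE 0.10, adjusted p = 0.943). Hgfac, the plasma protease that activates hepatocyte growth factor, was at 382 ± 39.9 CPM (wildtype) and 307 ± 59.8 CPM (knockout) (-0.31, SE 0.085). Avpr1a, the vasopressin receptor of hepatocytes, was at 50.3 ± 15.0 CPM (wildtype) and 34.8 ± 10.0 CPM (knockout), with 0 of 15 above the median (-0.53, SE 0.16). Oasl1, an interferon-induced inhibitor of Irf7 translation, had -0.37 (SE 0.11). Mydgf, a secreted growth factor, had -0.18 (SE 0.056), Sox13, a transcription factor, -0.21 (SE 0.065), and Noxa1, a subunit that activates NADPH oxidase, -0.50 (SE 0.16). The metallothioneins Mt1 and Mt2 also belong here and are described with the acute phase genes.

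The functions were read from 42 gene lists with 860 genes, of which 791 were tested. Outside Cd163, edgeR called 0 of these genes, and Trat1 had the lowest edgeR adjusted p among them, 0.537. DESeq2 called 1 of them, Spic. The median log2 fold change of a list lay between -0.365 and 0.71, positive in 19 and negative in 23 lists, and only 3 medians were further than 0.2 from 0. They belong to the globin and erythroid genes, the acute phase genes and the markers of recruited and lipid-associated macrophages. The median kept its sign in 39 of 42 lists without knockout M and wildtype A. It changed sign in 8 lists when knockout F alone was left out, and in 11 lists with the library number as a covariate. Leaving out 1 liver turned the median of 20 lists, of which 15 have a median within 0.05 of 0, where the sign says little.

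**Figure D4:**
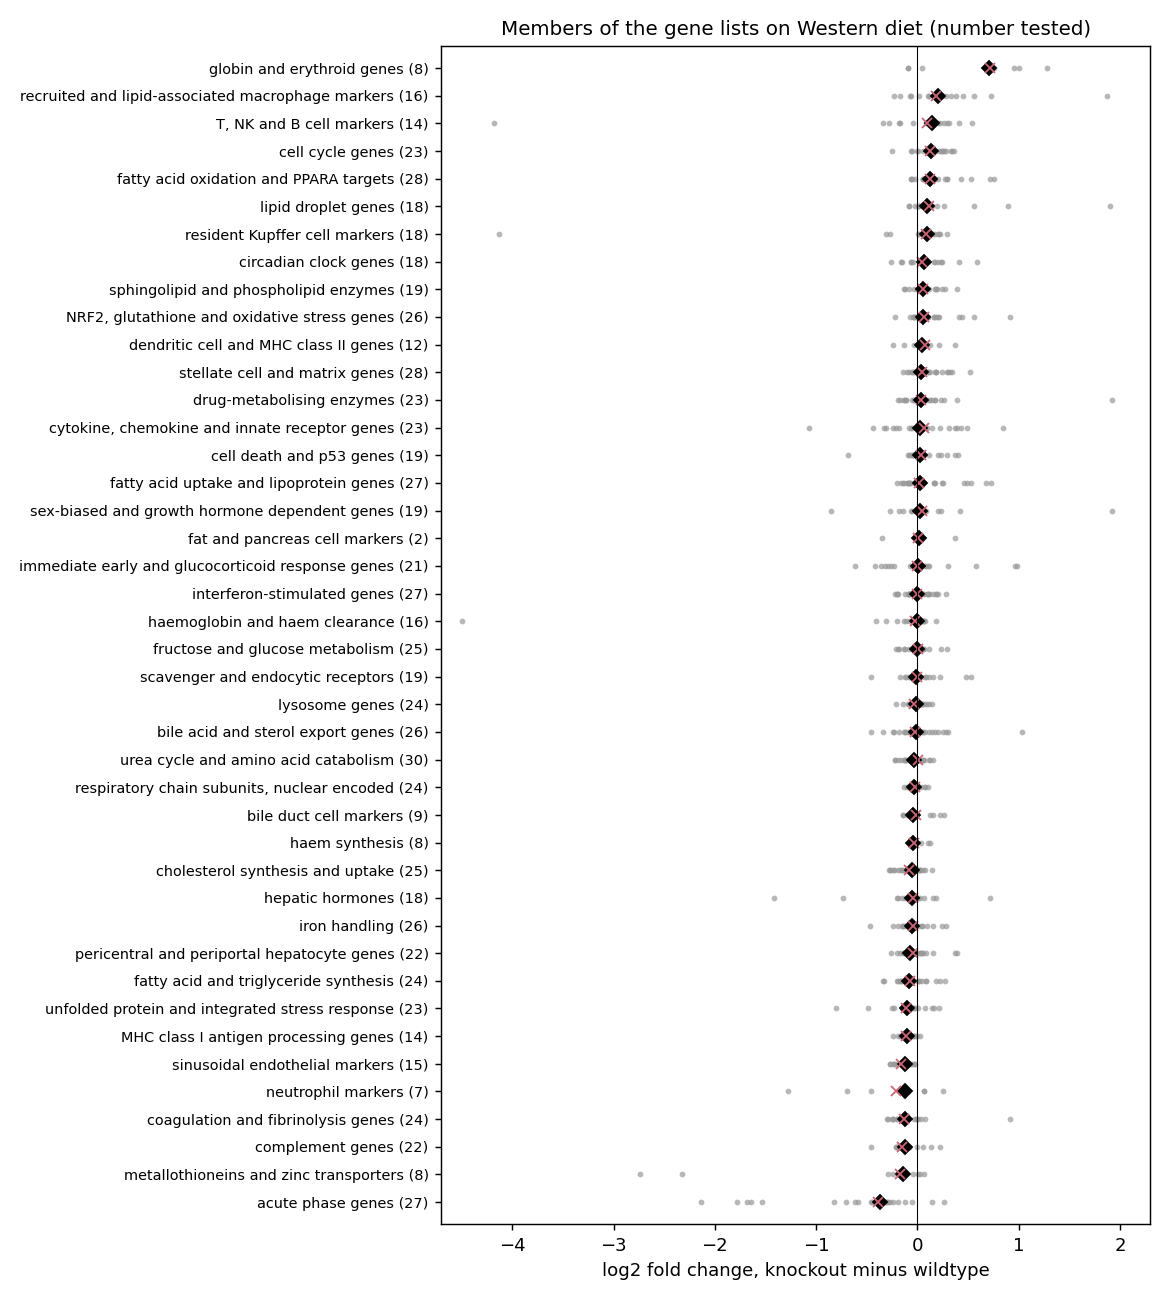
Log2 fold changes (knockout minus wildtype) of the tested members of each of the 42 gene lists in grey, 1 point per gene, with the number of tested members in parentheses. The black diamond is the median of the list and the red cross its median without knockout M and wildtype A. Most medians lie within 0.2 of 0, and the points far to the left are Cd163, Spic, Trat1, the metallothioneins and acute phase genes.

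The pathway that CD163 serves showed no called gene apart from Cd163. Of the 16 genes of haemoglobin and haem clearance, 8 had a positive and 8, with Cd163, a negative fold change (median -0.0036). Hp, haptoglobin, the plasma partner of haemoglobin that CD163 recognises, was at 5764 ± 3684 CPM (wildtype) and 4326 ± 1793 CPM (knockout) (log2 fold change -0.41, 95% interval -0.94 to 0.11). Its wildtype range, from 2337 to 15255 CPM (median 4255), contained the whole knockout range, from 2576 to 8856 CPM (median 3229). Hmox1, haem oxygenase 1, was at 22.4 ± 12.3 CPM (wildtype) and 22.5 ± 10.7 CPM (knockout), with a log2 fold change of 0.0087 and an interval of -0.45 to 0.47. Hpx, hemopexin, which binds free haem in plasma, had -0.31 (-0.80 to 0.18), and Lrp1, the receptor that takes up the hemopexin complex, -0.016 (-0.20 to 0.17). Ambp, the precursor of the haem-binding plasma protein alpha-1-microglobulin, was at 3228 ± 747 CPM (wildtype) and 2806 ± 477 CPM (knockout) (-0.20, SE 0.10). Slc48a1, which moves haem out of the phagolysosome, and Blvrb, biliverdin reductase B, had 0.029 (-0.12 to 0.18) and 0.059 (-0.18 to 0.29). For Hmox1, Lrp1, Slc48a1 and Blvrb these intervals lie within 1.5-fold of no change.

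No iron-handling gene was called. Of 26 tested members, 7 had a positive and 19 a negative fold change (median -0.056). Slc40a1, ferroportin, the exporter that returns iron from macrophages and hepatocytes to plasma, was at 63.6 ± 11.6 CPM (wildtype) and 77.2 ± 17.1 CPM (knockout), above the wildtype median in 13 of 15 knockout livers (log2 fold change 0.28, SE 0.11, adjusted p = 0.943). The ranges overlapped, from 40.2 to 86.5 CPM (median 60.3) in wildtype and from 45.0 to 114 CPM (median 74.8) in knockout. Hamp, hepcidin, the hormone that removes ferroportin, was at 339 ± 305 CPM (wildtype) and 244 ± 239 CPM (knockout) and varied so widely that its interval, -1.19 to 0.24, bounds little. The ferritin genes Fth1 and Ftl1, which respond to cell iron mainly through translation, had -0.041 (-0.18 to 0.097) and -0.045 (-0.24 to 0.16). Tfrc, the transferrin receptor, had 0.24 (SE 0.12), Tfr2, its hepatocyte relative and iron sensor, -0.15 (SE 0.076), and Ireb2, iron regulatory protein 2, 0.16 (SE 0.064). Haem synthesis, with 8 of 8 members tested, had a median of -0.045; Fech, which inserts the iron, had 0.13 (SE 0.064).

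EdgeR called no Kupffer cell marker in livers without Cd163, and DESeq2 called 1, Spic. Of 18 tested markers, 15 had a positive and 3 a negative fold change (median 0.097). Single livers moved this median, to 0.016 without knockout H and 0.18 without wildtype G. Clec4f, a lectin found on mouse Kupffer cells, was at 100.5 ± 37.3 CPM (wildtype) and 106 ± 38.1 CPM (knockout) (log2 fold change 0.075, 95% interval -0.29 to 0.44). Vsig4, a complement receptor, had 0.21 (-0.29 to 0.71), Timd4, a receptor for phosphatidylserine, 0.18 (-0.21 to 0.56), and Adgre1, which encodes F4/80, 0.29 (-0.18 to 0.76). The marker level (mean log2 CPM of the list) ranged from 3.07 to 5.01 in wildtype and from 3.46 to 4.97 in knockout livers. The ligand gene Tnfsf12 and its receptor gene Tnfrsf12a had -0.13 (-0.35 to 0.093) and 0.038 (-0.30 to 0.38). Of 19 tested scavenger and endocytic receptors, 9 had a positive and 10 a negative fold change. Among them, Mrc1, the mannose receptor, had -0.012 (-0.27 to 0.24), Msr1 0.083 (-0.24 to 0.41) and Marco 0.48 (-0.41 to 1.37). Asgr2, a subunit of the asialoglycoprotein receptor of hepatocytes, had the smallest p of these, 210.2 ± 15.0 CPM (wildtype) and 187 ± 17.0 CPM (knockout) (-0.17, SE 0.056).

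Spic was the Kupffer list's one gene with a large difference, and on Western diet it rested on 2 wildtype livers. Spic is the transcription factor of red pulp and iron-handling macrophages. It was at 174 CPM in wildtype L and 197 in wildtype M, and at 3.80 CPM or less in the other 28 livers. The fitted log2 difference was -4.13 (SE 1.00, adjusted p = 0.767 by edgeR), and without wildtype L and M it was 0.32. DESeq2 called it over the 30 livers (adjusted p = 5.58e-04) and without knockout M and wildtype A (adjusted p = 0.00119). In chow, wildtype B, C and D had 3094, 3515 and 1397 reads of Spic, wildtype A and E 27 and 16, and the 4 knockout livers between 11 and 39. High Spic was thus seen in 5 wildtype livers over both diets, with 2304 and 2739 reads in wildtype L and M, and the genotype difference in chow was not tested. Wildtype L and M are also the pair that resembled each other most. Trat1, an adaptor of the T cell receptor, was high in the same 2 livers and in wildtype G. It had 6.13 CPM in wildtype L, 4.88 in wildtype G and 3.52 in wildtype M, and at most 0.203 in the others. Its log2 fold change of -4.18 (SE 0.96, adjusted p = 0.537) stands beside positive ones of the T cell receptor itself. Cd3e, the signalling chain of the T cell receptor, had 0.31 (SE 0.25, and 0.11 without knockout F) and Trac, its alpha chain, 0.54 (SE 0.29). Cd4, of the same list, went the other way with -0.34 (SE 0.20). Of the 14 tested T, NK and B cell markers, 8 had a positive and 6 a negative fold change (median 0.14).

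Markers of recruited and lipid-associated macrophages had a median of 0.20, with 12 of 16 tested members positive, but knockout F alone set the direction of several. These macrophages gather around fat-laden or dying hepatocytes. Gpnmb, a defining marker that was too low to be tested, was at 21.2 CPM in knockout F, 1.12 in knockout A and less in the other 28 livers. Trem2, a lipid receptor of these cells, was at 11.5 CPM in knockout F (log2 fold change 0.34 with it and -0.15 without it). Mmp12, macrophage elastase, was at 16.0 CPM there, and its fold change went from 1.87 to -0.030. Itgax, which encodes CD11c, went from 0.55 to -0.14. Without knockout F the median of the list was -0.076. Spp1, osteopontin, was at 42.0 ± 7.57 CPM (wildtype) and 47.3 ± 10.4 CPM (knockout) (0.17, SE 0.10, and 0.14 without knockout F).

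The same library was at the top of several other cell type lists. The stellate cell and matrix genes, which mark fibrogenic cells, had 19 of 28 tested members positive (median 0.035) and -0.058 without knockout F. Col1a1, the main collagen of scar, was at 27.5 ± 11.6 CPM (wildtype) and 34.2 ± 33.2 CPM (knockout); knockout F was at 145 CPM, and the fold change went from 0.32 to -0.068 without it. Rgs5, a pericyte gene, was at 34.2 ± 6.67 CPM (wildtype) and 43.2 ± 12.3 CPM (knockout) (0.34, SE 0.13, and 0.26 without knockout F). Dendritic cell and MHC class II genes had 9 of 12 positive (median 0.041, and -0.13 without knockout F). Cell cycle genes had 19 of 23 positive, with a median of 0.13, and -0.044 without knockout F. In each of the lists of recruited macrophage, stellate, class II, cell cycle and interferon-stimulated genes, knockout F had the highest mean level of the 30 livers. At 5.02, its stellate level stood above the wildtype maximum of 4.41.

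The other cell type lists held no called gene either. All 15 sinusoidal endothelial markers had a negative fold change, beside 46.5% negative over all tested genes. Their median was -0.12 (-0.16 without knockout M and wildtype A) and 0 were called. Ehd3 was at 56.3 ± 9.65 CPM (wildtype) and 47.6 ± 13.6 CPM (knockout) (-0.24, SE 0.11), above the wildtype median in 1 of 15 knockout livers, and Stab2, a scavenger receptor for hyaluronan, at 71.6 ± 8.75 CPM (wildtype) and 66.0 ± 10.5 CPM (knockout) (-0.12, SE 0.074). With the library number as a covariate the median of this list was 0.032. The library numbers of the 2 genotypes lie mostly in separate stretches, so that fit can hardly separate number from genotype. Bile duct markers had 4 of 9 positive (median -0.043; Krt19, a keratin of the ducts, 0.12, SE 0.19). The neutrophil list, with 7 of 16 members tested, had a median of -0.12, which was 0.13 without wildtype G and -0.42 without knockout F. S100a8, an abundant neutrophil protein, had an interval as wide as -1.87 to 0.48.

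Red cell transcripts held no called gene, and their list median changed sign with library number as a covariate. Of 8 tested globin and erythroid genes, 6 had a positive fold change (median 0.71). Hbb-bs, adult beta globin, ranged from 1.52 to 66.5 CPM (median 7.07) in wildtype and from 1.17 to 80.4 CPM (median 25.5) in knockout, and 10 of 15 knockout livers were above the wildtype median (log2 fold change 0.67, SE 0.58). With library number as a covariate, the median of the list was -0.45 and Hbb-bs was at -1.05. Since the library numbers of the genotypes lie mostly in separate stretches, this fit can hardly separate number from genotype. The other 8 members were too low to be tested or not in the table. The part of blood left in the tissue in these values was not tested.

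Acute phase genes had the list median furthest below 0, with no gene called. Hepatocytes make these plasma proteins in response to interleukin 6 and related cytokines. Of 27 tested members, 25 had a negative and 2 a positive fold change, with a median of -0.37 (-0.39 without knockout M and wildtype A), 0 called and 6 lower at an unadjusted p under 0.05 (2.32% over all tested genes). Saa1, serum amyloid A1, ranged from 34.2 to 9315 CPM (median 271) in wildtype and from 37.1 to 1616 CPM (median 220.5) in knockout livers. The knockout values lay within the wildtype range, and 7 of 15 were above the wildtype median. The wildtype mean was raised by 5 livers, F, G, L, M and N, each at 2085 CPM or more, a level that 0 knockout livers reached. These livers were picked by their values. The same 5 livers had Mt1, a metal-binding metallothionein induced in the acute phase, at 141 to 305 CPM. The highest knockout liver, E, was at 91.3. Over the whole acute phase list (mean log2 CPM), knockout E was at 9.08, above wildtype F (8.79) and N (8.57) and below wildtype G, L and M. The log2 fold changes were -1.68 (SE 0.79) for Saa1, -1.64 (SE 0.55) for Saa3, -1.78 (SE 0.69) for Orm2, -2.32 (SE 0.68) for Mt1 and -2.73 (SE 0.84) for Mt2. Leaving out wildtype G alone gave -0.91 for Saa1 and -0.56 for Orm2, and a list median of -0.23. Without knockout E, Mt2 was at -4.14. Leaving out wildtype L and M gave a list median of -0.20.

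**Figure D5:**
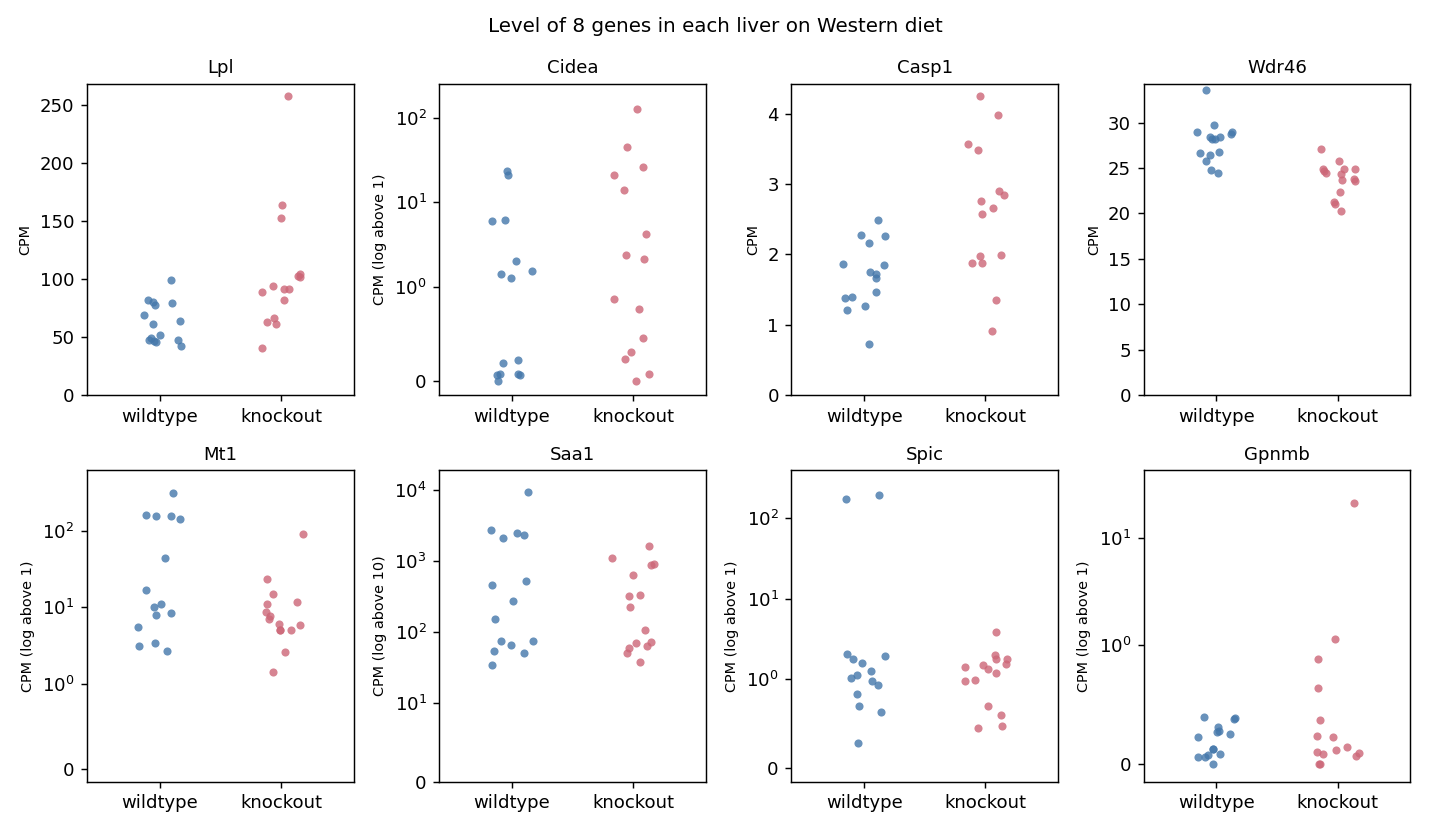
CPM of 8 genes in each of the 15 wildtype and 15 knockout livers on Western diet, 1 point per liver, on linear axes for Lpl, Casp1 and Wdr46 and on axes that are linear near 0 and logarithmic above for the others. Lpl reaches 257 CPM in knockout J, Mt1 and Saa1 have a separate upper group of wildtype livers, Spic is high in wildtype L and M, and Gpnmb is high in knockout F.

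Genes of 2 further sets of hepatocyte plasma proteins had mostly negative fold changes, with none called. Complement genes had 19 of 22 tested members negative (median -0.13), and coagulation and fibrinolysis genes 20 of 24 negative (median -0.12), beside 46.5% negative over all tested genes. At an unadjusted p under 0.05, 3 complement and 6 coagulation genes were lower, beside 2.32% over all tested genes, and 0 were called. F10, coagulation factor X, was at 511 ± 70.0 CPM (wildtype) and 443 ± 48.3 CPM (knockout) (log2 fold change -0.21, SE 0.070), and F7, factor VII, at 127 ± 20.9 CPM (wildtype) and 107 ± 18.3 CPM (knockout) (-0.25, SE 0.087). C1ra, a protease of the C1 complex, had -0.19 (SE 0.073), C1s1, its partner, -0.13 (SE 0.055), and C8b, of the membrane attack complex, -0.46 (SE 0.22). C1ra and C1s1 lie 9 and 10 annotated genes from Cd163. Leaving out any single liver kept the medians of both lists between -0.17 and -0.089 for complement and between -0.15 and -0.11 for coagulation. Of the wildtype livers, F, G, L and M, which were high in acute phase genes, also had the highest levels of both lists. Their mean log2 CPM was 8.32 to 8.54 for complement and 8.48 to 8.59 for coagulation, beside knockout maxima, both in knockout E, of 8.40 and 8.54. Without wildtype L and M the medians were -0.088 and -0.11.

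Antigen presentation through MHC class I had 13 of 14 members negative (median -0.10), beside 46.5% negative over all tested genes. At an unadjusted p under 0.05, 3 were lower, beside 2.32% over all tested genes, and 0 were called. H2-K1, a classical class I heavy chain, was at 1981 ± 223 CPM (wildtype) and 1759 ± 143 CPM (knockout) (log2 fold change -0.17, SE 0.057, adjusted p = 0.943), above the wildtype median in 1 of 15 knockout livers. H2-T23, the nonclassical Qa-1 chain, had -0.19 (SE 0.072), and Tap2, of the peptide transporter, -0.12 (SE 0.063). Interferon-stimulated genes, many of which share regulators with class I, had 13 positive and 14 negative (median -0.00099, and -0.13 without knockout F). The class I median without knockout F was -0.11. Cytokines, chemokines and innate receptors had 13 positive and 10 negative (median 0.030, and -0.15 without knockout F). Cxcl1, a neutrophil-attracting chemokine, ranged from 5.85 to 586 CPM (median 22.6) in wildtype and from 5.36 to 234 CPM (median 27.7) in knockout (-1.07, SE 0.69). Ccl3, a macrophage chemokine, had 0.84 (SE 0.40) and Nlrp3, the inflammasome sensor upstream of Casp1, 0.39 (SE 0.23).

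Lipid genes held no called member in any of 6 lists. Fatty acid oxidation and PPARA targets had 24 of 28 positive, with a median of 0.13, beside 53.5% positive over all tested genes. Wildtype G, L and M, high in acute phase genes, had the lowest wildtype levels of this list (mean log2 CPM 5.41 to 5.61). The lowest knockout liver, H, was at 5.57, below wildtype L and M. Without wildtype L and M the median of the list was 0.071. Ppara, the nuclear receptor of fasting and fat oxidation, was at 75.6 ± 22.3 CPM (wildtype) and 92.6 ± 25.9 CPM (knockout), above the wildtype median in 14 of 15 knockout livers (log2 fold change 0.29, SE 0.15). Cpt1a, the gate to mitochondrial oxidation, had 0.16 (SE 0.13). Fgf21, a hormone under Ppara control, had 0.72 with a wide interval of -0.27 to 1.71. Lipid droplet genes had 15 of 18 positive (median 0.098). Cidec and Cidea, which enlarge droplets and mark steatosis in mouse liver, spread widely in both genotypes. Cidea ranged from 0 to 23.6 CPM (median 1.27) in wildtype and from 0 to 126 CPM (median 2.13) in knockout (1.90, SE 0.87), with knockout J highest, and without J its fold change was 0.96. Cidec was at 21.1 ± 17.5 CPM (wildtype) and 39.1 ± 32.0 CPM (knockout) (0.89, SE 0.41). G0s2, an inhibitor of droplet lipolysis, had 0.55 (SE 0.34).

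Uptake and lipoprotein genes had 15 positive and 12 negative members. Beside Lpl, Apoc2, its cofactor, was at 6.57 ± 2.78 CPM (wildtype) and 9.29 ± 3.64 CPM (knockout), above the wildtype median in 13 of 15 knockout livers (log2 fold change 0.49, SE 0.23). Cd36, a fatty acid and scavenger receptor, was also above the median in 13 of 15, at 72.2 ± 57.3 CPM (wildtype) and 104 ± 50.9 CPM (knockout) (0.53, SE 0.39). Angptl8, an inhibitor of Lpl, had 0.68 (SE 0.38), and Lcat, which esterifies cholesterol in HDL, -0.15 (SE 0.066). Synthesis of fatty acids and triglyceride had 8 positive and 16 negative members (median -0.080, and 0.11 without wildtype C). Fasn, fatty acid synthase, had -0.053 (-0.60 to 0.49), Scd1, which desaturates its products, 0.27 (-0.28 to 0.82) and Dgat2, the last step to triglyceride, -0.16 (SE 0.084). Cholesterol synthesis and uptake had 7 positive and 18 negative members, and the median of this list depended on knockout M and wildtype A, the 2 livers with its highest levels (mean log2 CPM 7.15 and 7.15). Its median was -0.050 over 15 against 15, -0.081 without both, and between -0.39 and 0.11 with 1 liver left out. The extremes came without knockout M and wildtype A. Sphingolipid and phospholipid enzymes had 14 of 19 positive (median 0.058); next to Ugcg, Cers6, a ceramide synthase, had 0.39 (SE 0.20).

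Bile acid and sterol export genes were balanced, with 12 positive and 14 negative members. Cyp8b1, which sets the share of cholic acid, was at 465 ± 123 CPM (wildtype) and 366 ± 114 CPM (knockout) (log2 fold change -0.34, SE 0.16), and Fgfr4, the receptor that represses bile acid synthesis, at 73.6 ± 9.95 CPM (wildtype) and 62.9 ± 10.8 CPM (knockout) (-0.23, SE 0.093). Cyp7a1, the rate-limiting enzyme, had -0.25 with an interval of -0.83 to 0.34, and -0.041 without knockout M and wildtype A. Sugar metabolism had 10 positive and 15 negative members (median -0.0053). Khk, ketohexokinase, the first enzyme of fructose breakdown, had -0.13 (SE 0.11). Liver hormones and secreted regulators had 6 positive and 12 negative. Enho, which encodes adropin, was the most variable of them, from 0.182 to 38.7 CPM (median 4.70) in wildtype and from 0.376 to 20.3 CPM (median 1.73) in knockout (-1.41, SE 0.60; -1.87 without knockout M and wildtype A). Fetub and Agt, a plasma protease inhibitor and angiotensinogen, had -0.20 (SE 0.094) and -0.15 (SE 0.078).

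The remaining hepatocyte functions held no called gene. Urea cycle and amino acid genes had 13 positive and 17 negative members, with Prodh, proline dehydrogenase, at -0.22 (SE 0.098) and Gnmt, glycine methyltransferase, at -0.22 (SE 0.11). Drug-metabolising enzymes had 12 and 11. Cyp2b9, a female-biased cytochrome P450, ranged from 0 to 2.43 CPM (median 0.145) in wildtype and from 0 to 17.1 CPM (median 0.355) in knockout (1.92, SE 0.84), and sex-biased genes as a list had 11 positive and 8 negative members. Zonation genes had 9 and 13; Lgr5, of the cells around the central vein, had -0.20 (SE 0.15). Unfolded protein and integrated stress genes had 5 positive and 18 negative (median -0.099; Hspa5, the main chaperone of the endoplasmic reticulum, -0.13, interval -0.57 to 0.31). Wildtype F, G, L and M had the highest wildtype levels of that list (mean log2 CPM 7.74 to 7.82). Knockout E, at 7.83, was above all of them, and knockout B was at 7.75. Without wildtype L and M the median of the list was -0.023. Genes of NRF2, glutathione and oxidative stress had 19 positive and 7 negative (median 0.050; Nqo1 0.036, interval -0.38 to 0.45; Gclc 0.16, SE 0.098). Nuclear-encoded respiratory chain genes had 7 and 17 (median -0.031).

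Among the last lists, lysosome genes had 12 positive and 12 negative members. Ctsl, the protease cathepsin L, had the smallest p of them, at 593 ± 85.3 CPM (wildtype) and 513 ± 57.6 CPM (knockout) (log2 fold change -0.21, SE 0.069, adjusted p = 0.943), above the wildtype median in 2 of 15 knockout livers. Cell death and p53 genes had 11 and 8, with Ccng1, cyclin G1, a p53 target, at 30.3 ± 4.41 CPM (wildtype) and 37.2 ± 8.03 CPM (knockout) (0.30, SE 0.11). Clock genes had 12 and 6; Nr1d1, the repressor REV-ERB alpha, had 0.40 (SE 0.28). Immediate early and glucocorticoid response genes had 11 and 10. Atf3, a stress-induced transcription factor, was at 1.62 ± 0.675 CPM (wildtype) and 3.10 ± 3.83 CPM (knockout) (0.98, SE 0.35; 0.42 without knockout F, which had 16.2 CPM). Sgk1, a glucocorticoid-induced kinase, was above the wildtype median in 1 of 15 knockout livers (-0.36, SE 0.16).

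Leaving out knockout M and wildtype A together shifted the genotype fold changes little. The pair holds 1 liver of each genotype, so shifts from the 2 can offset each other. Left out singly, they moved the median of the cholesterol list to -0.39 (without knockout M) and 0.11 (without wildtype A). Without both, the median absolute shift of the log2 fold change was 0.0158 and the largest 0.484, over 15239 genes, of which 14219 kept their sign. Among the 532 diet genes, 0 were called between genotypes with or without the pair. Their median absolute fold change between genotypes was 0.217 with the pair and 0.222 without it, and their median SE 0.305 and 0.300. The remaining 14 knockout livers lay between 0.859 and 1.25 on the diet scale and the 14 wildtype livers between 0.819 and 1.05. The ranges overlapped, but the upper end held knockout livers only. Knockout A, B, C, E, J, L and N, at 1.06 to 1.25, lay above the highest wildtype liver, C at 1.05. The other knockout livers lay within the wildtype range. The difference in diet position between genotypes was not tested.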

How the data were processed

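RNA of snap-frozen liver was sequenced in pairs on a NovaSeq instrument after NEBNext Ultra library preparation, per the labels' protocols. The deposited table holds raw counts of reads per gene for 55416 genes and 39 libraries. The submitters' processing notes name GRCm39, the aligner STAR 2.7.8a, the counter featureCounts 2.0, FastQC and MultiQC. The annotation release and strand setting are not given in the sources used here. The low-count filter was filterByExpr in edgeR 4.0.16 (minimum count 10, minimum total 15), which left 15296. Libraries were scaled by TMM, and all 39 libraries entered a quasi-likelihood model with a term for each group (R 4.3.3). Groups came from the labels. The contrast was knockout minus wildtype on Western diet, with Benjamini-Hochberg adjustment over all tested genes and a threshold of 0.05. The SE follows from the F statistic, CPM are counts scaled by TMM library size with mean ± SD over mice, and the level of a list is the mean log2 CPM of its members with a prior count of 2. Total counts per library bound the precision of low genes, and intervals from reads cover counting error only, since the reads carry no molecular identifiers.

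The members and gene lists were chosen with earlier results of these data known. Lists were described by counts and medians and not tested. The text names Cd163, genes called by any tool, the 12 genes of smallest p on each side of 0 at a mean of 1 CPM or more, up to 4 members of smallest p per list, anchors of each cell type and the tested neighbours of Cd163. Genes of known role in the pathways (such as Hmox1, Hamp, Mrc1, Msr1, Marco, Fasn, Cpt1a, Cyp7a1, Fgf21, Hspa5 and Nqo1) and the 4 untested neighbours were added after their values were seen. A few genes that the rule names are not reported here. Alternatives were other scalings, no filter, DESeq2 1.42.0, limma 3.58.1 voom with sample weights, the Western diet libraries alone, fits without libraries that stand apart, the library number as a covariate, the replicate letter as a block and each library left out in turn. The fit was tested on simulated counts. Figures were drawn with matplotlib 3.10.9.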

Additional observations from a re-analysis of the deposited data

How the results depend on the processing

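Cd163 was called under all 45 alternatives, with log2 fold changes between -4.64 and -4.32. It was the only call with each library left out in turn (1 gene in all 30 fits). The number of called genes was 4 with DESeq2, 3 without a filter on low counts and 4 with DESeq2 without knockout M and wildtype A. Of these calls, 1700013D24Rik and Gm44007 are too low for the main test, whereas Spic was tested there. Over the larger sets of genes in these fits the share of genes with an interval within 2-fold was 42.7%, 48.5% and 42.5% there. Of 189 named genes, 20 took the opposite sign under at least 1 alternative, and none of these was called by the main test. Spic, 1 of the 20, was called by DESeq2 over the 30 livers. The cause of these changes was not tested. Without wildtype L and M, Spic was at 0.32 and Clstn3 at -0.011. With DESeq2, Mmp12 was at -0.026 and Itgax at -0.13, and without knockout M and wildtype A at -0.022 and -0.18. With limma voom, S100a9 was at 0.15, Ltf -0.16, Pex5 0.00976, Trem2 -0.10 and Col1a1 -0.00627. Without knockout M and wildtype A the voom values were -9.73e-05 for Itgax, 0.012 for S100a9, -0.11 for Ltf, 0.00681 for Pex5 and -0.087 for Trem2. With library number as a covariate, the values were 0.00320 for Urod, -0.020 for Tfrc, -0.15 for Ltf, -0.75 for Hbb-bt, -0.80 for Hba-a1, -1.05 for Hbb-bs, 0.032 for Stab2, 0.011 for Tap2, 0.021 for Ndufb8, -0.048 for Clock and 0.023 for C1rl. With 1 library left out, fold changes ranged between -0.030 and 2.01 for Mmp12, -0.14 and 0.63 for Itgax, -0.15 and 0.47 for Trem2, and -0.068 and 0.45 for Col1a1, each lowest without knockout F. They ranged between -0.023 and 0.025 for Pex5 and -0.053 and 0.0034 for C1rl, and for S100a8 between -1.02 and 0.050 and for S100a9 between -0.71 and 0.32, highest without wildtype G. The medians of 14 of the 42 lists kept their sign under all 45 alternatives. Libraries of the same replicate letter had a mean correlation of deviations of -0.0104 (range -0.32 to 0.38, 3 of 15 pairs over 0.1). These values were not set against other pairings, so they cannot decide whether the letters pair the mice. Litter was not modelled. With the letter as a replicate block, Cd163 was again the 1 call (log2 fold change -4.50), and Trem2 was at -0.049. Depth limits low genes, whose intervals are wide, and the 4 genes next to Cd163 rest on 18 to 75 reads each.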
